A study of Rana omeimontis with 12 samples.

Results

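Liver and tail are the organs set side by side here, in control tadpoles of the frog Rana omeimontis that had received no thyroid hormone. The members are the unigenes, the gene models of a transcriptome assembled without a genome, that reached 1 FPKM in at least 3 of the 6 control libraries. They number 19642 of the 56172 unigenes in the table, and 526 of them carry no protein description. FPKM counts the fragments of a transcript relative to its length and to the mapped fragments of the library, and levels can therefore be set beside each other between genes of different length.

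RNA was sequenced from both organs of pro-metamorphic tadpoles kept either with the thyroid hormone T3 or with its solvent. The control livers and the control tails compared here, 3 libraries each, came from tadpoles at Gosner stage 30 to 31 that were kept for 3 days with the solvent DMSO alone. Whether a library pools tadpoles, and whether a liver and a tail of the same number come from the same animal, is not given in the sources used here, so that p-values take their error from these 3 samples a tissue, whose spread may be technical. The T3 livers and T3 tails, also 3 libraries each, came from tadpoles of the same stage kept for 3 days with T3. They are used at the end as libraries that the choice of members did not touch.

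The liver secretes most proteins of the blood plasma, disposes of nitrogen, makes glucose and turns cholesterol into bile acids. The tadpole tail is a swimming organ of segmented skeletal muscle around a notochord and a spinal cord, covered by a larval skin. It is resorbed at metamorphic climax, whereas the liver is kept.

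Summed FPKM lay between 956551 and 1029985 in the control livers and between 880361 and 989765 in the control tails. The liver libraries held 19454 to 19886 unigenes at 1 FPKM or more and the tail libraries 16095 to 18599. Read counts are not used here. By the spacing of their lowest values, the deepest of the 6 libraries had 1.32 times the relative depth of the shallowest. Of log2(FPKM + 1) of the members, the correlation was 0.95 to 0.96 between livers, 0.95 to 0.96 between tails and 0.50 to 0.53 between a liver and a tail.

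Control livers 1 and 2 differed from control liver 3 in their pancreas transcripts. The exocrine pancreas is the gland of digestion, and 65 unigenes worded as its products took up 8.31% and 10.3% of summed FPKM in livers 1 and 2, 0.0418% in liver 3, and 0.00281% to 0.00509% in the tails. Trypsinogen, the precursor of the protease trypsin, was at 19963, 24794 and 55.4 FPKM in the control livers and at 1.24, 2.51 and 3.45 FPKM in the control tails. Chymotrypsinogen was at 5385, 3896 and 6.96 FPKM in the livers and at 0, 0.27 and 0.27 FPKM in the tails. Pancreatic alpha-amylase, which digests starch, was at 5626, 7705 and 29.8 FPKM in the livers and at 0.72, 0.80 and 1.28 FPKM in the tails. Of the 9 tested members of the pancreas list 8 were called higher in liver with limma, the test described below that called 25.3% of all members higher, and none with an ordinary single-gene test (adjusted p = 0.0663 for trypsinogen, 0.0953 for chymotrypsinogen and 0.0606 for amylase). The remaining member, GP2-like, was called lower and was listed at 0 in the livers and at 12.2, 29.6 and 4.90 FPKM in the tails. Among the 9 tested, 6 had passed the filter through the livers alone and 1 through the tails alone. The limma counts of this list were therefore largely fixed by the filter. Since livers 1 and 2 differed from liver 3, the counts of calls over all members and over most other lists are also given without them. That leaves 1 liver against 3 tails and takes the spread from the tails alone. For the pancreas list the median log2 difference, liver minus tail, was 7.86 with all 6 libraries and 2.76 without livers 1 and 2.

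Log2(FPKM + 1) of the 19642 members was compared with limma, a linear model that shares its estimate of the spread across unigenes, and p-values were adjusted over all of them by the Benjamini-Hochberg method. A unigene is called at an adjusted p below 0.05, and log2 differences are liver minus tail on the log2(FPKM + 1) scale, which understates the difference of low unigenes. Of all members 47.1% were called (9245), 25.3% higher in liver (4964) and 21.8% lower in liver (4281). Without livers 1 and 2 the calls were 20.4% (4008), 12.7% higher (2494) and 7.71% lower (1514). The median log2 difference over all members was 0.04, and the median of the called ones was 1.43 among those higher in liver and -1.48 among those lower. Differences of at least 5 on the log2 scale were held by 393 unigenes called higher and 271 called lower in liver.

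The filter itself fixes part of these counts. At 1 FPKM or more in all 6 libraries were 11165 members, of which 1805 were called higher and 2181 lower in liver. A further 2114 passed through the 3 livers alone and 1638 through the 3 tails alone. Such members had to differ, so that counts of calls and p-values among them are a description. Leaving out the filter, 339 unigenes of the whole table were at 1 FPKM or more in every control liver and listed at 0 in every control tail, and 323 the other way round.

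Plasma protein and contractile markers followed the tissue labels. The transcripts of 32 plasma proteins held 7.20%, 5.68% and 6.95% of the summed FPKM of the control livers and 0.0746%, 0.0942% and 0.0402% of that of the control tails. Those of 24 proteins of the contractile apparatus held 0.00307%, 0.00566% and 0.00699% in the livers and 5.58%, 8.08% and 11.6% in the tails. The groups did not overlap for either list (exact permutation test, two-sided p = 0.10 for each, the lowest that 3 against 3 allows). Both lists were chosen with earlier results of these data known, so that this p is a description. In such bulk samples fewer cells of a type and less RNA per cell cannot be told apart. Liver 1 had the lowest share of muscle transcripts among the livers and tail 1 the lowest among the tails.

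**Figure D1:**
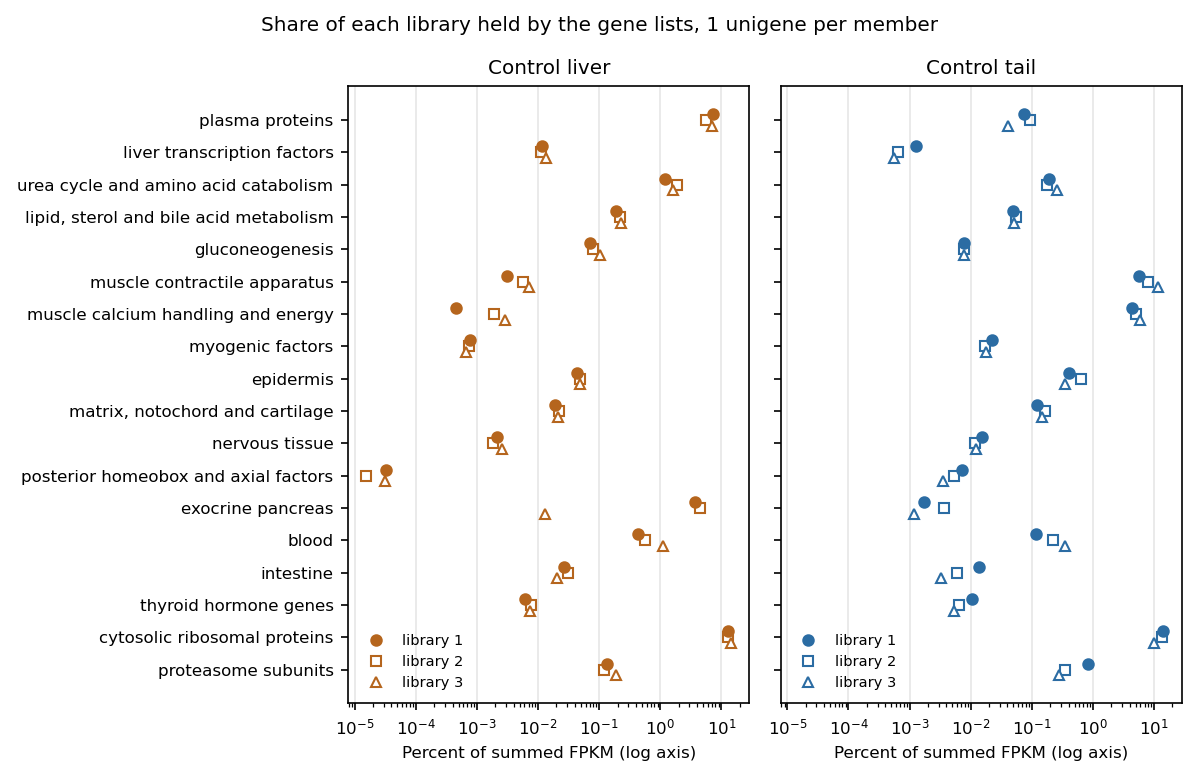
Share of summed FPKM, in percent on a log axis, held by each gene list in the 3 control livers (left) and the 3 control tails (right), 1 symbol per library and 1 unigene per list member. Pancreas transcripts are at 3.69% and 4.46% in livers 1 and 2 and at 0.0131% in liver 3, while cytosolic ribosomal proteins are at 9.98% to 14.4% in all 6 libraries.

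The single most abundant transcripts differed between the tissues, ranked here among unigenes with an informative protein description. In the livers FR10, a freeze-responsive protein described in the wood frog, was the highest by its mean, with 22347, 22485 and 28163 FPKM, against 59.6, 55.5 and 19.7 FPKM in the tails. Trypsinogen, given above, was also among the 5 highest means of the livers, through livers 1 and 2 alone. The freeze-responsive liver protein Li16 was at 11922, 11281 and 14878 FPKM in the livers and at 7.88, 15.7 and 20.8 FPKM in the tails. Ferritin H, which stores iron, was abundant in both, at 23937, 20543 and 24500 FPKM in the livers and at 16957, 14494 and 14216 FPKM in the tails (log2 difference 0.60 ± 0.13 SE, limma adjusted p = 0.00499, and 0.187 with quantile normalization and 0.221 without livers 1 and 2). In the tails the first place was taken by muscle creatine kinase, described below, followed by a unigene worded as beta actin at 1864, 1844 and 2056 FPKM in the livers and at 13610, 25953 and 37045 FPKM in the tails. The actins, like the myosins, keratins and globins named below, are families of near-identical genes, and how fragments were divided among their unigenes is uncertain.

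All 29 tested plasma proteins were called higher in liver, against 25.3% of all members, with a median log2 difference of 8.85. The count was also 29 without livers 1 and 2. Of the 29, 11 had passed the filter through the livers alone. Apolipoprotein A-I, the main protein of high-density lipoprotein, showed the largest difference of any member called higher in liver. It was at 9207, 7632 and 11943 FPKM in the livers and at 4.29, 7.91 and 2.05 FPKM in the tails (10.81 ± 0.37 SE, adjusted p = 4.22e-08). The chains of fibrinogen, the clot protein, were close to each other, with log2 differences of 10.14 for alpha, 10.14 for beta and 10.11 for gamma. Albumin, the main carrier of the plasma, was at 3021, 1390 and 2801 FPKM in the livers and at 6.75, 7.75 and 13.8 FPKM in the tails (7.83 ± 0.36 SE, adjusted p = 2.15e-07).

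Transthyretin, which carries thyroid hormone in tadpole blood, was at 647, 348 and 537 FPKM in the livers and at 0.05, 0.28 and 0.05 FPKM in the tails. Liver 2 was the lowest of the livers for albumin and for transthyretin, and the groups stayed far apart. Of the 29 tested plasma proteins 14 were at 1 FPKM or more in all 6 libraries, and a few were far above that in the tails. Retinol-binding protein 4, the carrier of vitamin A, was at 10394, 9343 and 9923 FPKM in the livers and at 446, 711 and 234 FPKM in the tails, a smaller difference (4.55 ± 0.34 SE). The smallest of the list was that of coagulation factor X, at 171, 169 and 227 FPKM in the livers and at 39.6, 28.9 and 23.7 FPKM in the tails (2.60 ± 0.26 SE, adjusted p = 3.85e-05). Complement C4, a protein of innate defence, was at 962, 934 and 1447 FPKM in the livers and was likewise present in the tails, at 121, 70.1 and 79.2 FPKM.

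Among the 10 largest differences on the liver side, of unigenes with an informative description, were also 2 proteins of innate defence. A surfactant protein D-like collectin was at 6030, 5082 and 5910 FPKM in the livers and at 1.54, 4.97 and 2.00 FPKM in the tails (10.63 ± 0.32 SE). A unigene worded as C3 protein, the central complement component, was at 8732, 5905 and 7220 FPKM in the livers and at 2.20, 7.70 and 2.95 FPKM in the tails (10.55 ± 0.36 SE).

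**Figure D2:**
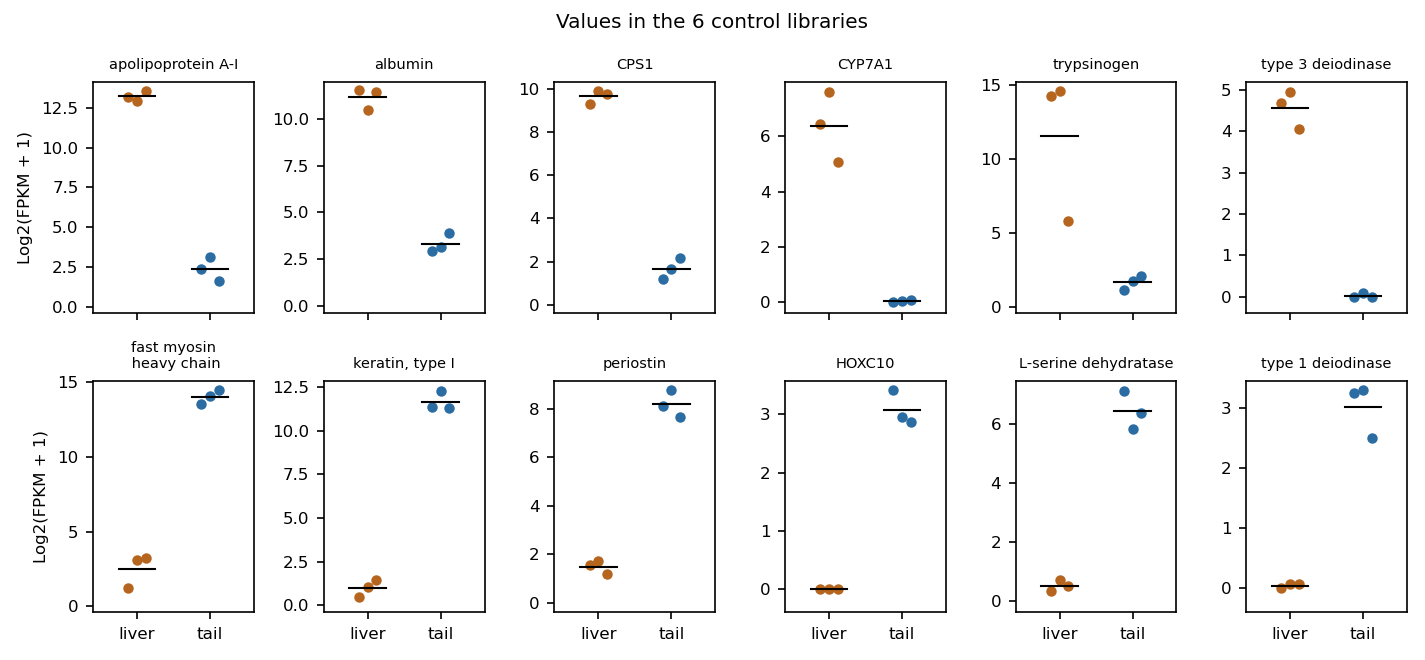
Log2(FPKM + 1) of 12 members in the 3 control livers (left in each panel) and the 3 control tails (right), with 1 point per library and the mean as a line. The groups do not overlap in any panel, the members having been picked with their values seen. Liver 3 lies far below livers 1 and 2 for trypsinogen, at 55.4 FPKM against 19963 and 24794 FPKM.

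Transcription factors of the liver were low in FPKM, and those tested were all on the liver side. Of 20 listed 13 matched a unigene and 12 were tested. The nuclear receptor PXR was below the filter, and its groups overlapped. It was at 0.4, 0.77 and 0.37 FPKM in the livers and at 1.12, 0.82 and 0.26 FPKM in the tails. All 12 tested were called higher in liver, against 25.3% of all members, and 11 without livers 1 and 2, with a median of 2.98. Of the 12, 9 had passed the filter through the livers alone, so that the count was largely fixed by the filter. HNF4-alpha, a nuclear receptor required for hepatocyte identity, was at 7.17, 10.02 and 12.8 FPKM in the livers and at 0.30, 0.09 and 0 FPKM in the tails (3.26 ± 0.26 SE, adjusted p = 1.02e-05). FXR, the receptor for bile acids, was at 16.0, 13.9 and 20.3 FPKM in the livers and at 1.19, 0.10 and 0.16 FPKM in the tails (3.64 ± 0.32 SE). GATA4 was at 7, 8.53 and 7.92 FPKM in the livers and at 0, 0.07 and 0.02 FPKM in the tails. PPAR-alpha, which switches on fatty acid oxidation, was more evenly spread, with 15.1, 18.3 and 20.3 FPKM in the livers and 3.11, 2.33 and 2.80 FPKM in the tails (2.33 ± 0.23 SE). HNF1-beta had the smallest difference of the list (1.57 ± 0.25 SE, adjusted p = 0.000855), and its call did not hold without livers 1 and 2 (adjusted p = 0.0606). The liver factors are also made by other endodermal organs, the pancreas among them. The part of pancreas tissue in their differences was not tested. Without livers 1 and 2 the median was 2.84, and liver 3 still held more pancreas transcripts than the tails.

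Enzymes of the urea cycle, which turns ammonia into urea, and of amino acid breakdown divided between the tissues. Of 29 tested members 22 were called higher in liver and 4 lower, against 25.3% and 21.8% of all members, with a median of 3.46. Without livers 1 and 2 these counts were 17 and 3. Among the 29, 5 had passed the filter through the livers alone and 1 through the tails alone. Every urea cycle enzyme of the list was called higher in liver. Carbamoyl-phosphate synthase, which takes up the ammonia, was at 617, 953 and 860 FPKM in the livers and at 1.26, 2.13 and 3.51 FPKM in the tails (7.97 ± 0.30 SE, adjusted p = 7.19e-08). Argininosuccinate synthase was at 1526, 2415 and 3135 FPKM in the livers and at 32.8, 46.9 and 32.2 FPKM in the tails (5.90 ± 0.29 SE). Ornithine carbamoyltransferase, argininosuccinate lyase and arginase-1, the cycle's other steps, differed by 6.05, 4.90 and 5.13 on the log2 scale. N-acetylglutamate synthase, whose product switches carbamoyl-phosphate synthase on, was at 6.62, 10.8 and 14.2 FPKM in the livers and listed at 0 in every tail. In each of these enzymes except arginase-1, where liver 2 was slightly above liver 3, and carbamoyl-phosphate synthase, where liver 2 was highest, liver 3 was the highest of the livers, and liver 1 was the lowest in all of them.

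The highest level of the list belonged to betaine-homocysteine methyltransferase, which remakes methionine from homocysteine. It was at 4706, 8429 and 5309 FPKM in the livers and at 21.6, 41.2 and 25.9 FPKM in the tails (7.66 ± 0.30 SE). The largest difference was that of 4-hydroxyphenylpyruvate dioxygenase, a step of tyrosine breakdown, with 1200, 1767 and 1198 FPKM in the livers and 0.57, 1.31 and 0.93 FPKM in the tails (9.48 ± 0.26 SE). Uricase, which oxidises uric acid, was at 443, 420 and 341 FPKM in the livers and at 0.95, 1.90 and 0.47 FPKM in the tails. Histidine ammonia-lyase was at 118, 146 and 96.4 FPKM in the livers, with 0, 0.14 and 0 FPKM in the tails. The enzymes that make creatine were on the liver side, while the kinase that charges it was on the tail side. Guanidinoacetate N-methyltransferase, the last step, was at 983, 1133 and 1605 FPKM in the livers and at 83.5, 108 and 144 FPKM in the tails (3.46 ± 0.27 SE). Glycine amidinotransferase, the step before, was at 62.7, 61.0 and 86.1 FPKM in the livers and at 1.37, 1.61 and 19.3 FPKM in the tails (3.81 ± 0.71 SE, adjusted p = 0.00202, and 0.15 without livers 1 and 2), tail 3 standing apart from the other tails.

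A smaller set of amino acid enzymes was called lower in liver. Serine dehydratase, which makes pyruvate from serine, was at 0.25, 0.64 and 0.41 FPKM in the livers and at 139, 55.3 and 82.4 FPKM in the tails (-5.93 ± 0.34 SE, adjusted p = 9.23e-07). Arginase-2, the mitochondrial arginase and part of the list of paired forms, was at 0.53, 0.65 and 0.24 FPKM in the livers and at 79.5, 66.4 and 148 FPKM in the tails (-5.99 ± 0.32 SE, adjusted p = 6.43e-07). Arginase-1, at 201, 379 and 375 FPKM in the livers and at 11, 12.7 and 3.11 FPKM in the tails, thus ran the other way. Ornithine aminotransferase, which takes the ornithine of arginase toward proline and glutamate, was at 127, 139 and 43.7 FPKM in the livers and at 278, 368 and 706 FPKM in the tails (-2.17 ± 0.48 SE, adjusted p = 0.00485). Proline dehydrogenase was at 5.37, 10.9 and 2.57 FPKM in the livers and at 15.7, 20.3 and 36.2 FPKM in the tails (-1.87 ± 0.46 SE, adjusted p = 0.00836). With an ordinary single-gene test the adjusted p was 0.0728 for ornithine aminotransferase and 0.0836 for proline dehydrogenase. Glycine dehydrogenase was at 11.5, 12.02 and 8.95 FPKM in the livers and at 24.3, 17.7 and 19.1 FPKM in the tails (-0.85 ± 0.24 SE, adjusted p = 0.0165, and 0.0733 without liver 3).

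Of 15 tested genes of lipid, sterol and bile acid metabolism 11 were called higher in liver and 2 lower, with a median of 3.21. The shares of all members were 25.3% and 21.8%, and 5 of the 15 had passed the filter through the livers alone. Without livers 1 and 2 the median of this list was 3.31, with fewer members called in either direction. Bile acid synthesis was on the liver side throughout. CYP7A1, its rate-limiting enzyme, was at 86.6, 193 and 32.4 FPKM in the livers and at 0, 0.03 and 0.05 FPKM in the tails (6.33 ± 0.53 SE, adjusted p = 1.36e-05). Liver 2 was the highest and liver 3 the lowest of the livers, and the groups did not overlap. CYP8B1, which sets the kind of bile acid, was at 84.7, 107 and 112 FPKM in the livers and at 10.2, 11.2 and 6.99 FPKM in the tails. CYP27A1 was at 89.9, 98.2 and 85.2 FPKM in the livers and at 3.66, 3.96 and 5.64 FPKM in the tails. The bile salt export pump, which moves bile acids into the bile, was at 73.2, 123 and 69.7 FPKM in the livers and at 0, 0.05 and 0 FPKM in the tails (6.41 ± 0.27 SE).

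Other lipid genes lay on either side. Microsomal triglyceride transfer protein, which loads lipid onto apolipoprotein B, was at 60.6, 73.4 and 61.4 FPKM in the livers and at 0.31, 0.32 and 0.75 FPKM in the tails (5.51 ± 0.24 SE). Hepatic triacylglycerol lipase had the largest difference of the list, at 835, 885 and 1015 FPKM in the livers and 0.36, 0.47 and 0.48 FPKM in the tails (9.31 ± 0.21 SE). Diacylglycerol O-acyltransferase 2, which makes triglyceride, was at 17.9, 15.8 and 21.6 FPKM in the livers and listed at 0 in every tail. Acyl-CoA desaturase, which makes monounsaturated fatty acids, was at 5.32, 3.36 and 5.08 FPKM in the livers and at 16.2, 9.86 and 7.84 FPKM in the tails (-1.10 ± 0.31 SE, adjusted p = 0.0156, and 0.0699 without liver 2). HMG-CoA lyase, the last step of ketone body synthesis, was also lower in liver (-1.01 ± 0.26 SE, adjusted p = 0.0102, and 0.26 without livers 1 and 2). Peroxisomal acyl-CoA oxidase 1 was abundant in both tissues, at 599, 609 and 602 FPKM in the livers and at 318, 434 and 423 FPKM in the tails (0.63 ± 0.19 SE, adjusted p = 0.0223), and its call did not hold without any single liver (adjusted p = 0.0716, 0.0838 and 0.0717).

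Of 6 genes of gluconeogenesis, the synthesis of new glucose, 5 were called higher in liver and 4 without livers 1 and 2. The share of all members called higher was 25.3%, and 2 of the 6 had passed the filter through the livers alone. Glucose-6-phosphatase, which releases glucose into the blood, was at 15.6, 41.1 and 27.8 FPKM in the livers and listed at 0 in every tail. Cytosolic PEPCK was at 346, 368 and 510 FPKM in the livers and at 9.16, 9.43 and 4.08 FPKM in the tails (5.63 ± 0.32 SE, adjusted p = 9.29e-07). The glucose-6-phosphate exchanger SLC37A4 was at 87.6, 95.3 and 114 FPKM in the livers and at 18.7, 28.5 and 57.4 FPKM in the tails (1.62 ± 0.37 SE, adjusted p = 0.00599, and 0.169 without livers 1 and 2). Pyruvate carboxylase, at 9.10, 8.84 and 8.37 FPKM in the livers and 6.83, 8.53 and 2.36 FPKM in the tails, overlapped and was not called (adjusted p = 0.201).

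On the tail side all 24 tested proteins of the contractile apparatus were called lower in liver, against 21.8% of all members, with a median of -8.40, and all 24 also without livers 1 and 2. Of the 24, 10 had passed the filter through the tails alone. Fast myosin heavy chain, the motor of fast muscle fibres, was at 1.34, 7.67 and 8.64 FPKM in the livers and at 12006, 17202 and 22548 FPKM in the tails (-11.49 ± 0.50 SE, adjusted p = 1.61e-07). Fast troponin T, which holds the calcium switch on the thin filament, was at 1.86, 5.07 and 6.55 FPKM in the livers and at 8083, 12275 and 18476 FPKM in the tails (-11.23 ± 0.41 SE). Myosin light chain 1/3 was at 0.24, 4.84 and 6.87 FPKM in the livers and at 6054, 10983 and 18289 FPKM in the tails. For these 3 genes tail 1 was the lowest and tail 3 the highest tail, and liver 1 the lowest liver. Obscurin, which ties the sarcomere to the sarcoplasmic reticulum, was listed at 0 in every liver and at 270, 245 and 277 FPKM in the tails.

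Of 13 tested genes of muscle calcium handling and energy supply all were called lower in liver, against 21.8% of all members, with a median of -7.27, and 11 without livers 1 and 2. Of the 13, 10 had passed the filter through the tails alone, which fixed most of the count. Muscle creatine kinase, which refills ATP from creatine phosphate, had the highest mean in the tails among unigenes with an informative description. It was at 2.42, 9.81 and 12.99 FPKM in the livers and at 19462, 27787 and 36459 FPKM in the tails (-11.72 ± 0.48 SE, adjusted p = 1.11e-07). SERCA1, the calcium pump of fast muscle, was at 1.11, 5.65 and 9.75 FPKM in the livers and, nearly constant among the tails, at 15653, 15321 and 15992 FPKM there (-11.52 ± 0.50 SE). Calsequestrin-1, which stores the pumped calcium, was at 0.16, 1.26 and 2.02 FPKM in the livers and at 2179, 3186 and 3987 FPKM in the tails. Parvalbumin beta, a calcium buffer that speeds relaxation, was at 0, 0 and 0.81 FPKM in the livers and at 456, 869 and 1393 FPKM in the tails. Junctophilin-1 had the smallest difference, at 0.02, 0.29 and 0 FPKM in the livers and 1.01, 1.36 and 2.07 FPKM in the tails.

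The factors that set up muscle followed the same division at far lower levels, and all 9 tested were called lower in liver, 8 of them without livers 1 and 2, although 7 had passed the filter through the tails alone. The share of all members called lower was 21.8%. MyoD was listed at 0 in every liver and was at 33.8, 22.2 and 50.9 FPKM in the tails. Myf5, of the same family, was at 0.05, 0 and 0 FPKM in the livers and at 23.1, 14.4 and 4.99 FPKM in the tails. MRF4 and myogenin, which complete the family, were listed at 0 in every liver as well, with MRF4 at 24.3, 18.5 and 17.2 FPKM and myogenin at 5.51, 3.02 and 3.04 FPKM in the tails. All 4 had passed the filter through the tails alone, so that their groups could not overlap. MEF2D, which many tissues use, was at 6.46, 5.79 and 4.90 FPKM in the livers and at 19.3, 15.4 and 16.4 FPKM in the tails (-1.43 ± 0.23 SE, adjusted p = 0.000831).

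Of 17 tested epidermal genes 14 were called lower in liver and 1 higher, with a median of -2.26, and without livers 1 and 2 these counts were 6 and 1. The shares of all members were 21.8% lower and 25.3% higher, and 4 of the 17 had passed the filter through the tails alone. A larval type I keratin was at 0.39, 1.04 and 1.77 FPKM in the livers and at 2652, 5000 and 2535 FPKM in the tails (-10.67 ± 0.34 SE, adjusted p = 3.3e-08). Tumor protein 63, the master regulator of stratified epithelium, was at 0.07, 0.04 and 0 FPKM in the livers and at 13.4, 23.8 and 6.76 FPKM in the tails. Collagen XVII, which anchors basal cells, was at 0, 0.03 and 0.12 FPKM in the livers and at 31.2, 72.2 and 25.8 FPKM in the tails. In these 3 genes tail 2 was the highest of the tails. The most abundant type II keratin was at 75.1, 78.1 and 55.6 FPKM in the livers and at 395, 372 and 597 FPKM in the tails (-2.67 ± 0.25 SE). Cadherin-1, the adhesion protein of epithelial cells, was the member called higher in liver, at 325, 367 and 374 FPKM in the livers and 70.4, 95.0 and 55.9 FPKM in the tails (2.28 ± 0.24 SE, adjusted p = 5.61e-05). Junction plakoglobin and desmocollin were not called, with adjusted p of 0.071 and 0.0723, but both were called with median-ratio scaling (adjusted p = 0.026 and 0.0469).

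Of 24 tested genes of matrix, notochord and cartilage 20 were called lower in liver and 1 higher, with a median of -2.53, and without livers 1 and 2 these counts were 17 and 1. The shares of all members were 21.8% lower and 25.3% higher. Among the 24, 9 had passed the filter through the tails alone and 1 through the livers alone. Periostin, a matrix protein of connective tissue, was at 1.92, 2.29 and 1.26 FPKM in the livers and at 277, 438 and 199 FPKM in the tails (-6.70 ± 0.32 SE, adjusted p = 2.82e-07). Collagen IX alpha-1, a fibril protein of cartilage and notochord, was at 0, 0 and 0.13 FPKM in the livers and at 35.5, 83.2 and 140 FPKM in the tails. Collagen XI alpha-1 was at 0.25, 0.14 and 0 FPKM in the livers and at 42.6, 75.1 and 119 FPKM in the tails. Brachyury, the transcription factor that defines the notochord, was listed at 0 in every liver and was at 6.02, 7.19 and 6.92 FPKM in the tails. Collagen II, the usual partner of both collagens, was at 2.57, 5.84 and 4.05 FPKM in the livers and at 4.01, 3.43 and 2.30 FPKM in the tails in its most abundant unigene, without a call (adjusted p = 0.53). Its wording matched 51 unigenes, of which this value is 1. A unigene worded as fibrillin-1, a protein of elastic microfibrils, was on the liver side, at 37.1, 112 and 90.0 FPKM in the livers and 0.39, 0.35 and 0.15 FPKM in the tails (5.82 ± 0.39 SE, adjusted p = 2.65e-06).

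Of 13 tested nerve genes 8 were called lower in liver and none higher by limma, with the same counts at an unadjusted p below 0.05 and without livers 1 and 2. Of the 13, 8 had passed the filter through the tails alone and had to differ, and 21.8% of all members were called lower. Myelin protein P0, the main protein of peripheral myelin, was at 0, 0.05 and 0.05 FPKM in the livers and at 23.1, 23.4 and 24.8 FPKM in the tails (-4.58 ± 0.21 SE, adjusted p = 2.46e-07). Myelin proteolipid, of central myelin, was at 0.03, 0.06 and 0.14 FPKM in the livers and at 27.1, 21.5 and 25.03 FPKM in the tails. Neurofilament light was at 0.04, 0.14 and 0.03 FPKM in the livers and at 20.6, 19.7 and 19.6 FPKM in the tails. In each of these 3 genes the tails lay close together. All 3 had passed the filter through the tails alone, so that their groups could not overlap.

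All 13 tested members of the list of posterior homeobox and axial factors, MSX1 among them, were called lower in liver. Posterior HOX genes mark position along the body axis. All 13 had passed the filter through the tails alone, so that the count over the control libraries was fixed by the filter. It is not to be read against the 21.8% of all members, and the p-values of single members below are likewise a description. In the livers none of the 13 exceeded 0.11 FPKM, whereas in the tails they ran from 1.06 to 9.64 FPKM. HOXC10 was listed at 0 in every liver and was at 9.64, 6.74 and 6.31 FPKM in the tails. HOXC11 was listed at 0 in the livers as well, with 7.18, 5.50 and 5.22 FPKM in the tails. HOXC12 was at 0.03, 0 and 0.02 FPKM in the livers and at 8.32, 6.81 and 5.78 FPKM in the tails (-2.96 ± 0.22 SE, adjusted p = 5.53e-06). HOXA13, the most posterior of its cluster, was at 0, 0.03 and 0.04 FPKM in the livers and at 6.55, 2.02 and 1.51 FPKM in the tails (-1.91 ± 0.38 SE, adjusted p = 0.00264, and 0.175 without livers 1 and 2). Tail 1 was the highest tail for these 4 genes.

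**Figure D3:**
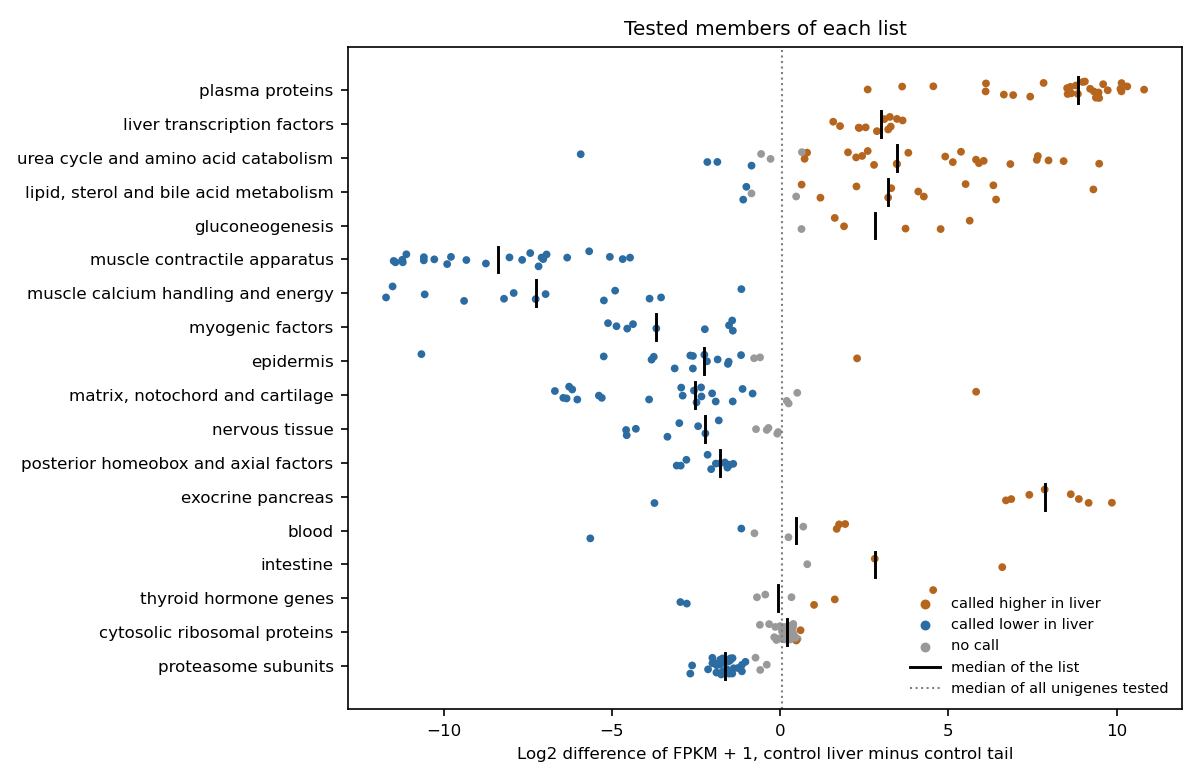
Log2 differences of FPKM + 1, control liver minus control tail, of the tested members of each list, 1 point per unigene coloured by its call, with the list's median as a black bar and the median of all unigenes tested (0.04) as a dotted line. Plasma proteins lie between 2.60 and 10.81, contractile proteins between -11.49 and -4.46 and ribosomal proteins between -0.61 and 0.60. Points of genes listed at 0 in all libraries of a tissue depend on the added 1 FPKM.

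Many metabolic proteins come in paralogous forms, of which vertebrate muscle or heart uses a particular one. For 15 such proteins both forms were tested. A further 5 pairs without a muscle form, the arginases among them, were also tested, and 2 of these were called in opposite directions. Among the 46 tested members of the list of paired forms 12 had passed the filter through the tails alone and 4 through the livers alone. Such members had to differ, so that part of the counts below was fixed by the filter. Among them are the muscle or heart forms of glycogen phosphorylase, fatty acid-binding protein and carnitine palmitoyltransferase. How many of the muscle forms were fixed in this way was not counted. The muscle or heart form was called lower in liver in all 15 proteins, against 21.8% of all members. The liver or general form was called higher in liver in 12, against 25.3% of all members, and not called in 3. In 12 of the 15 the forms were thus called in opposite directions, and in none the reverse way. Without livers 1 and 2 the muscle form was called lower in 14 and the liver form higher in 4.

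Aldolase, which cleaves fructose bisphosphate in glycolysis, showed the division almost symmetrically. Its liver form B was at 6694, 7971 and 6948 FPKM in the livers and at 176, 125 and 66.6 FPKM in the tails (5.97 ± 0.32 SE, adjusted p = 5.7e-07). Its muscle form A was at 185, 102 and 91.3 FPKM in the livers and at 6954, 8228 and 12266 FPKM in the tails (-6.20 ± 0.30 SE, adjusted p = 3.49e-07). Liver glycogen synthase was at 27.1, 30.7 and 36.6 FPKM in the livers and at 0.06, 0.04 and 0.03 FPKM in the tails (4.95 ± 0.23 SE). Muscle glycogen synthase was at 4.32, 3.37 and 2.97 FPKM in the livers and at 52.3, 41.6 and 74.1 FPKM in the tails (-3.62 ± 0.28 SE). Glycogen phosphorylase, which breaks glycogen down, was less even. Its muscle form was at 0.70, 0.45 and 0.69 FPKM in the livers and at 164, 329 and 589 FPKM in the tails (-7.63 ± 0.41 SE), while its liver form, at 60.9, 56.4 and 51.5 FPKM in the livers, was also at 19.2, 19.2 and 9.04 FPKM in the tails (1.84 ± 0.31 SE).

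In other pairs 1 form carried the difference. Muscle enolase (beta) was at 0.53, 2.04 and 2.71 FPKM in the livers and at 2864, 3226 and 6420 FPKM in the tails (-10.56 ± 0.40 SE), whereas alpha enolase was at 6.03, 4.39 and 5.21 FPKM in the livers and at 2.17, 2.18 and 2.53 FPKM in the tails (0.91 ± 0.23 SE). The fatty acid-binding proteins leaned the other way. The liver form was at 417, 822 and 650 FPKM in the livers and at 0.57, 2.09 and 0 FPKM in the tails (8.49 ± 0.42 SE), and the heart form was at 0.41, 0.35 and 0 FPKM in the livers and at 11.3, 13.4 and 16.7 FPKM in the tails (-3.56 ± 0.26 SE). The 3 general forms without a call were creatine kinase B, SERCA2 and liver carnitine palmitoyltransferase 1, with log2 differences of -0.57, 0.13 and 0.24 (95% intervals of -1.17 to 0.04, -0.53 to 0.80 and -0.52 to 1.00), and that of SERCA2 was -0.04 without tail 3. The muscle form of the last, which brings fatty acids into mitochondria, was at 0.64, 0.56 and 0.41 FPKM in the livers and at 10.8, 10.04 and 15.9 FPKM in the tails.

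**Figure D4:**
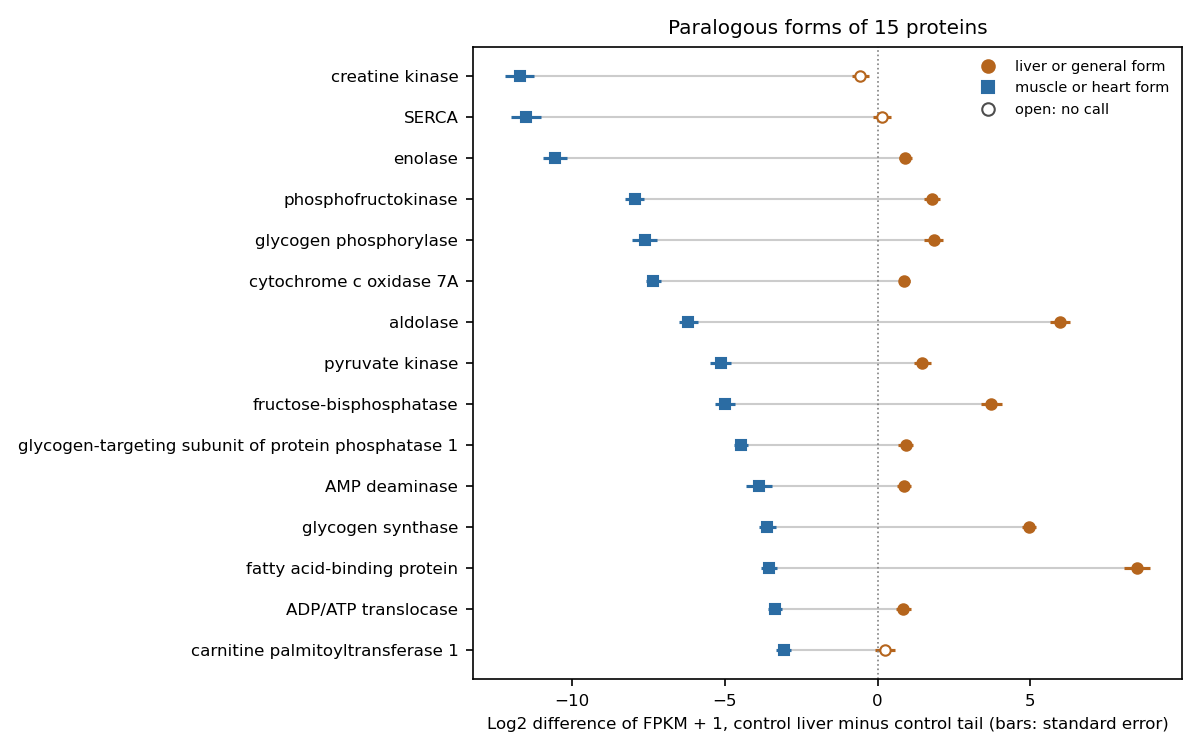
Log2 differences of FPKM + 1, control liver minus control tail, of the liver or general form (circles) and the muscle or heart form (squares) of 15 proteins, with standard errors as bars and open symbols for forms without a call. All 15 muscle or heart forms lie on the tail side, from -11.72 to -3.08.

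Blood cells are part of either tissue. Among the 8 tested blood markers, 1 had passed the filter through the livers alone and 1 through the tails alone. Of 8 tested blood markers 3 were called higher and 2 lower in liver, with a median of 0.46, against 25.3% and 21.8% of all members, which these counts are too few to be told from. Without livers 1 and 2 these counts were 0 and 1, and with an ordinary single-gene test on all 6 libraries also 0 and 1. A larval beta globin, the most abundant unigene worded as larval hemoglobin, was at 4354, 5670 and 10263 FPKM in the livers and at 752, 1846 and 3295 FPKM in the tails (1.93 ± 0.50 SE, adjusted p = 0.011, and 0.145 without livers 1 and 2). ALAS2, the first enzyme of heme synthesis in red cells, ran in the same order of libraries, at 48.8, 50.5 and 73.4 FPKM in the livers and at 7.73, 22.2 and 27.8 FPKM in the tails. A globin worded as the heart muscle alpha type was at 0.75, 0.25 and 0 FPKM in the livers and at 79.0, 51.6 and 64.3 FPKM in the tails (-5.65 ± 0.29 SE, adjusted p = 4.49e-07). Of 3 tested markers of the intestine 2 were called higher in liver, 1 of them without livers 1 and 2, and sucrase-isomaltase, a digestive enzyme of its lining, was at 137, 218 and 91.3 FPKM in the livers and at 0.85, 0.29 and 0.29 FPKM in the tails. Among the 3 intestine markers 1 had passed the filter through the livers alone, and 25.3% of all members were called higher in liver. The part of blood or gut in other differences was not tested.

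Single genes of thyroid hormone handling differed between the tissues in these tadpoles, while the share called in their list was near that of all members. Among the 8 tested, 1 had passed the filter through the livers alone and 1 through the tails alone. These were type 3 and type 1 deiodinase, which therefore had to differ. Of 8 tested 3 were called higher and 2 lower in liver, against 25.3% and 21.8% of all members, and without livers 1 and 2 these counts were 2 and 1. Type 3 deiodinase, which inactivates the hormone, was at 24.9, 30.1 and 15.8 FPKM in the livers and at 0, 0.06 and 0 FPKM in the tails (4.55 ± 0.28 SE, adjusted p = 1.44e-06). Type 1 deiodinase, which can remove iodine from either ring, was at 0, 0.05 and 0.05 FPKM in the livers and at 8.54, 8.82 and 4.65 FPKM in the tails (-2.97 ± 0.27 SE, adjusted p = 2.03e-05). MCT8, a membrane transporter of the hormone, was at 5.38, 7.34 and 5.69 FPKM in the livers and at 1.41, 1.49 and 1.04 FPKM in the tails (1.62 ± 0.23 SE). KLF9, a transcription factor that the hormone induces directly, was at 0.99, 2.25 and 0.80 FPKM in the livers and at 28.5, 9.66 and 10.9 FPKM in the tails (-2.78 ± 0.42 SE, adjusted p = 0.000539, and 0.0629 without livers 1 and 2), tail 1 being well above the other tails. The corepressor NCoR1 was at 11.7, 10.7 and 16.2 FPKM in the livers and at 6.43, 5.84 and 5.19 FPKM in the tails (1.00 ± 0.24 SE, adjusted p = 0.00825, and 0.0624 without livers 1 and 2). RXR-alpha, RXR-beta and the hormone-binding mu-crystallin were not called, and both thyroid hormone receptors and type 2 deiodinase were below the filter.

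Of the machinery that every cell uses, few ribosomal proteins were called and most proteasome subunits were lower in liver. Of 71 tested cytosolic ribosomal proteins 2 were called higher in liver and none lower by limma, against 25.3% and 21.8% of all members. The 2 were L34 (0.48 ± 0.16 SE, adjusted p = 0.0333) and S24 (0.60 ± 0.20 SE, adjusted p = 0.0364). At an unadjusted p below 0.05 the counts were 11 higher and 0 lower. Neither call held with library sums made equal (adjusted p = 0.144 and 0.138) or without livers 1 and 2, and over the alternatives 0 to 8 members were called higher and 0 to 1 lower. The median was 0.21, and the difference was positive in 64 of the 71, beside 10115 of all 19642 members. With quantile normalization the median was -0.16. The proteasome, the complex that degrades tagged proteins, differed in nearly all its parts. Of 30 tested descriptions 27 were called lower in liver and none higher, with a median of -1.64, against 21.8% of all members. Relative to the mean of the 3 livers, the median member was at 2.44, 1.32 and 1.06 on the log2 scale in tails 1, 2 and 3, and at -0.04, -0.11 and 0.14 in livers 1, 2 and 3. Tail 1 thus stood above the other tails, and without it 26 members were called lower. Without livers 1 and 2 none was called by limma (3 lower at an unadjusted p below 0.05), with a median of -1.49, and with an ordinary single-gene test on all 6 libraries 11 were called lower.

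Non-ATPase subunit 2 of the 26S particle, a scaffold of its base, was at 31.5, 29.5 and 36.2 FPKM in the livers and at 471, 152 and 118 FPKM in the tails (-2.62 ± 0.46 SE, adjusted p = 0.00131). Subunit 12 of the lid was at 29.8, 32.4 and 33.0 FPKM in the livers and at 376, 101 and 77.4 FPKM in the tails (-2.15 ± 0.51 SE, adjusted p = 0.00706). The 3 descriptions without a call were alpha type-1, beta type-8 and an unnumbered beta subunit. Beta type-8, a catalytic subunit of the immunoproteasome, was at 113, 70.7 and 225 FPKM in the livers and at 256, 115 and 143 FPKM in the tails. The unnumbered beta subunit was at 64.0, 68.2 and 228 FPKM in the livers and at 181, 128 and 150 FPKM in the tails. In both liver 3 was the highest liver, the groups overlapped, and the log2 difference was positive without livers 1 and 2 (0.48 and 0.58) and negative with them (-0.40 and -0.60).

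**Figure D5:**
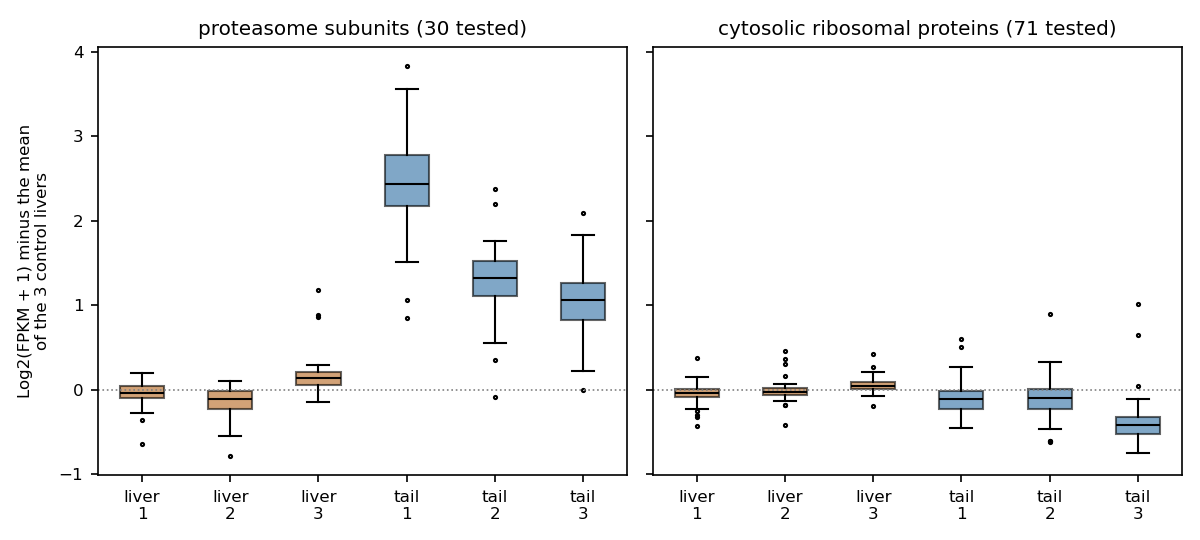
Log2(FPKM + 1) of the 30 tested proteasome subunits (left) and the 71 tested cytosolic ribosomal proteins (right) in each control library, minus the member's mean over the 3 control livers, as boxes of the middle quartiles with medians, whiskers to 1.5 times the box and points beyond. The proteasome medians are at 2.44, 1.32 and 1.06 in tails 1, 2 and 3, and the ribosomal medians between -0.41 and 0.04 in all 6 libraries.

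The same contrast was measured once more in the T3 libraries, which share no library with the control comparison. Over the same 19642 unigenes 58.0% were called between T3 liver and T3 tail (11401), 14.6% higher (2875) and 43.4% lower in liver (8526), and the median log2 difference was -0.55, which median-ratio scaling brought to 0.03. Differences in the T3 libraries are to be read against that shift. Of the 9245 unigenes called in the control libraries, 8311 (89.9%) had the same direction in the T3 libraries, 6132 (66.3%) were also called there, and 202 (2.18%) were called in the opposite direction. The directions were uneven. Of the 4964 called higher in control liver 4149 (83.6%) had the same direction and 2480 were also called, and of the 4281 called lower 4162 (97.2%) and 3652. Of those not called in the controls 61.1% had the same direction. All 29 plasma proteins were called higher in T3 liver too, and all 24 contractile proteins lower. Other lists changed, beside 14.6% higher and 43.4% lower of all unigenes in the T3 libraries. Of the pancreas list 8 were called higher and 1 lower in the control libraries, and 1 and 1 in the T3 libraries. For blood these counts went from 3 and 2 to 0 and 4, and for thyroid hormone genes from 3 and 2 to 0 and 5. For the amino acid list they went from 22 and 4 to 23 and 0. Of the 15 pairs of forms the muscle or heart form was called lower in T3 liver in all, while the liver or general form was called higher in 9, lower in 2 and not called in 4, so that opposite calls were held by 9 pairs in the T3 libraries and by 12 in the control libraries.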

How the data were processed

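The authors assembled the reads with Trinity, annotated unigenes against the NR protein database at an E-value of 1e-05, mapped reads with Bowtie and quantified them with RSEM, and deposited FPKM values per unigene. Their versions were not given in the sources used here, and read totals are unknown. Arms were taken from the sample labels, 3 libraries each.

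Unigenes at 1 FPKM or more in at least 3 of the 6 control libraries were fitted as log2(FPKM + 1) with limma 3.58.1 (R 4.3.3, variance trend, no block), with Benjamini-Hochberg adjustment over all of them and a threshold of 0.05. Tables and figures were made with Python 3.11.15, pandas 2.3.3, numpy 2.4.6 and matplotlib 3.10.9. The code was tested on simulated data. Shares of summed FPKM were compared by exact permutation tests. Other pseudocounts, filters, scalings, variance models and left-out libraries were tried.

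Gene lists held 451 members, of which 415 matched a description and 379 were tested. A member is represented by its matching unigene of highest mean. The members, lists and comparisons were chosen with earlier results of these data known, list wording was corrected after reading the annotation, and the genes given in full were picked from the lists with their values seen. Named genes are list members, the 10 largest differences in each direction and the 5 highest means of each tissue. Both rankings were made among unigenes with an informative description, without those worded as uncharacterized, hypothetical or the like.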

Additional observations from a re-analysis of the deposited data

Results flagged for a closer look

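For 7 list members the 3 livers lay wholly on one side of the 3 tails in the control libraries and wholly on the other side in the T3 libraries. For each of them the difference between the contrasts was not tested, and the T3 contrast carries the shift of all unigenes given above. How many of all unigenes reversed in this way was not counted, so that the 7 are a description only. In the control libraries glutamate dehydrogenase (limma adjusted p = 0.136), CD45 and ribosomal protein L12 were not called. S-adenosylmethionine synthase 2 and L12 were not called in the T3 libraries. CYP7B1, a hydroxylase of oxysterols and bile acid precursors, had log2 differences, liver minus tail, of -1.58 in T3 libraries and 3.21 in control libraries. Glutamate dehydrogenase, which releases ammonia from glutamate, had 2.36 in T3 libraries and -0.57 in control libraries. Glycine dehydrogenase, of the glycine cleavage system, had 3.19 in T3 libraries and -0.85 in control libraries. The leukocyte protein CD45 had -1.15 in T3 libraries and 0.68 in control libraries. The corepressor NCoR1 had -0.78 in T3 libraries and 1.00 in control libraries. S-adenosylmethionine synthase 2 had -0.56 in T3 libraries and 0.97 in control libraries. Ribosomal protein L12 had -0.27 in T3 libraries and 0.30 in control libraries. For the synthase and L12 the T3 value was close to, or smaller in size than, the median of all unigenes there (-0.55).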

How the results depend on the processing

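Of 2843 alternative values for 151 named genes over 19 settings, 2733 kept direction and side of the threshold, 90 lost the call (31 of them without livers 1 and 2, the rest in 19 genes), 14 gained it and 6 changed sign. Calls over all unigenes were 4008 without livers 1 and 2 (2494 higher, 1514 lower; a single liver remains) and 4664 with a mean of at least 5 FPKM required (2167 higher, 2497 lower; fewer unigenes tested). Leaving out 1 library gave 7733 to 9464 calls, 4265 to 5163 higher and 3468 to 4965 lower. Without tail 3 alone the split was 4499 higher and 4965 lower. Unigenes present in all livers and at 0 in all tails numbered 91 at 5 FPKM and 1792 at any value above 0, and the reverse 112 and 1207. The sign changes were mu-crystallin (-0.75 to 0.070 leaving out 1 library, the highest without liver 1, and 0.16 without livers 1 and 2), ribosomal protein L12 (-0.10 with quantile normalization), proteasome beta type-8 and beta subunit (0.48 and 0.58 without livers 1 and 2) and SERCA2 (-0.040 to 0.43 leaving out 1 library, the lowest without tail 3). The thyroid list's share, liver minus tail, was 4.58e-05 percentage points without pancreas transcripts in the total, 2.02e-05 without liver 1 and -0.00154 to 0.00114 over all libraries left out (the highest without tail 1), and that of ribosomal proteins -0.286 to 1.69 (the lowest without tail 3). The causes were not tested.

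Livers and tails share replicate numbers. Deviations of same-numbered samples correlated at 0.09, 0.19 and 0.09, which is not over 0.1 in every pair, so the numbers were not taken as a pairing, although each sample correlated best with its own number. A replicate block gave 9629 calls (5225 higher, 4404 lower) and, among named genes, took 2 calls (L34 and S24) and added 1 (junction plakoglobin).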
